A study of Danio rerio with 4 samples.

Results

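Keratins, annexins and claudins are 3 protein families with members expressed in epithelia such as the skin. Keratins form intermediate filaments in the cytoplasm, each filament built from pairs of a type I and a type II keratin. Annexins bind membrane phospholipids when calcium is present, and claudins are membrane proteins that build the strands of tight junctions between cells. In the zebrafish embryo the skin has an outer layer, the periderm, in which krt4 is expressed, and a basal layer, marked by the transcription factor gene tp63 and by the keratin gene krt1-19e.

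The probe sets examined here were all those of the array whose single gene symbol in the platform's annotation names a keratin, an annexin or a claudin other than cldn5a, with those of epcam, cdh1 and tp63 added as epithelial genes. They numbered 71 of the 15617 probe sets on the array and covered 55 of 8793 genes with a probe set of their own. Of these, 18 probe sets belonged to 15 keratin genes, 20 to 14 annexin genes, 28 to 23 claudin genes and 5 to epcam, cdh1 and tp63. The periderm keratin genes cyt1 and cyt1l, which were to be included, share 1 probe set annotated to both and were therefore left out. Signal could not be told from that of dim probe sets at 13 members, of which 9 were claudins, and these were not tested.

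RNA came from samples labelled as brain, 1 of wild-type zebrafish and 3 of foggy mutants. The foggy locus encodes Spt5, a transcription elongation factor, and the probe set of its gene supt5h read 210 in the wild type against 258, 245 and 254 in the mutants, which does not check a label whose mutation is not named. The labels give 36 h for the wild type and 36 without a unit for the mutants, read here as hours. They name neither the allele nor the genotype of the single embryos, give no treatment, do not say how many embryos were pooled or whether the 3 mutant samples came from separate clutches, and do not say whether skin or other head tissue came with the brain.

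The label of brain was set beside a list of 24 brain marker genes. Of the 21 with a probe set, 19 were above the dim range and otx2a and egr2b were below it. This count does not check the label. The filter kept 10851 of 15502 probe sets, and 14 of the 14 skeletal muscle markers with a probe set were above it too. The neuronal gene elavl3 read 613 in the wild type against 738, 721 and 706 in the mutant arrays. It did not pass the test described below (limma, adjusted p = 0.0803). The summed signal of the brain list was 18413 in the wild type against 17998 to 18466 in the mutants. Skin transcripts were measured in the same RNA. The periderm keratin krt4 read 8964 in the wild-type array, and the 2 probe sets of tp63 read 199 and 64.3, so that epithelial RNA was present in samples labelled as brain. In such bulk samples, fewer cells of a type and less RNA per cell cannot be told apart.

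Values are probe set intensities, already on a common scale across arrays. Each probe set was fitted with limma across the whole array, mutant against wild type, on log2(intensity + 16.3). Differences below are on that scale, which understates changes of weak signals, and a fold is 2 to the power of that difference. P-values are limma's, two-sided and Benjamini-Hochberg adjusted over 10851 tested probe sets, with 0.05 as the threshold for "rose" or "fell". With 1 wild-type array, all spread comes from the 3 mutant arrays, the wild-type array is assumed to vary as they do, and whether it was typical cannot be tested. The smallest p that permuting 4 arrays allows is 0.25.

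Members of these families moved in both directions. Of 58 tested member probe sets 8 rose, 9 fell and 41 did not pass, whereas 5.5% of all tested probe sets passed (2.36% rose and 3.14% fell). The rises were in 6 genes (krt18b, krt91, krt97, anxa1a, anxa1c and cldng) and the falls in 8 (krt1-19d, krt1-19e, krt15, krt17, krt94, anxa1b, anxa5b and anxa6). The median difference over the 58 was -0.00, against +0.02 over all tested probe sets, and the median size of the difference without its sign was 0.27, against 0.14. Among members all 3 mutant arrays lay on 1 side of the wild-type array at 46 of the 58 (24 above it and 22 below), where the background over all tested probe sets was 64.6%. The 3 mutant arrays all lay at least 0.5 above the wild type at 3 members (krt97, anxa1c and 1 probe set of cldng) and at least 0.5 below it at 3 (krt94, anxa1b and anxa6), against 0.553% and 1.95% of all tested probe sets. None reached a difference of 1 in all 3 arrays, as 0.0184% (above) and 0.571% (below) of all tested did. At an unadjusted p under 0.05 stood 36 of the 58, against 20.6%. Members were also measured with more signal than most of the array (median 287 against 116 for all tested), which goes with a smaller standard error (median 0.0935 against 0.129). Over all tested probe sets at or above the members' median signal 11.7% passed, and 12 of the 29 members in that range passed.

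**Figure D1:**
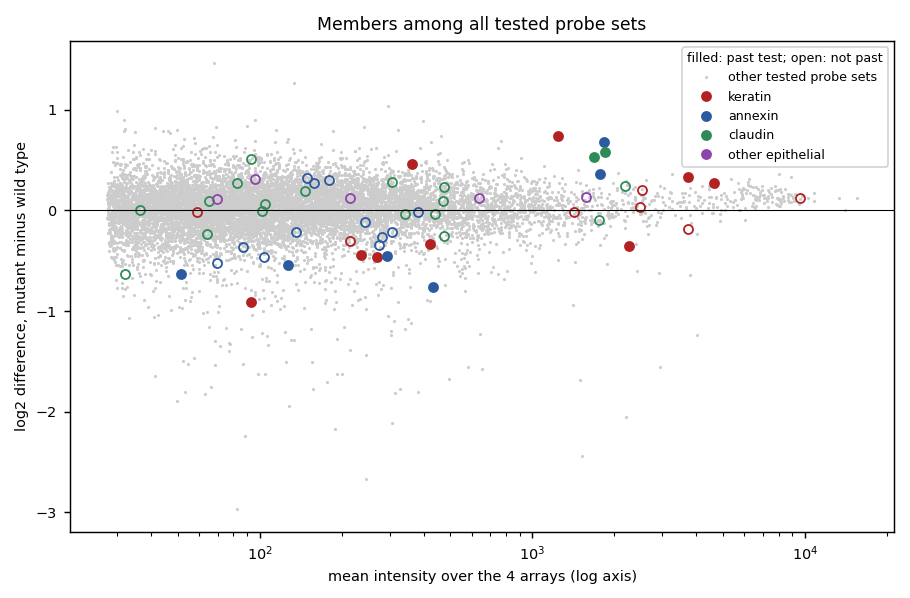
Mean intensity over the 4 arrays (log axis) against the log2 difference, mutant minus wild type, for 10851 tested probe sets (grey) and the 58 tested members (colour by family, filled where the test was passed). Filled points lie on both sides of 0, with 8 above and 9 below.

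**Figure D2:**
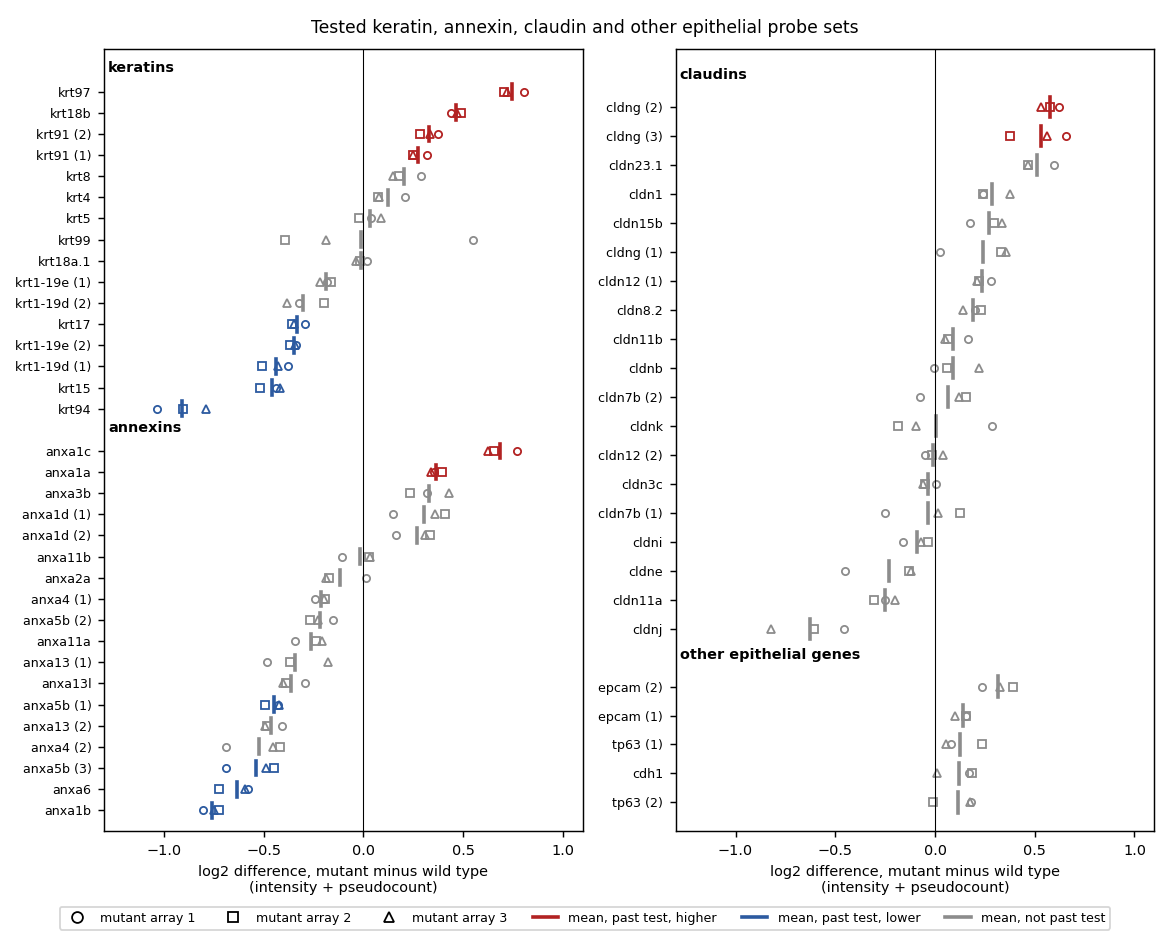
Log2 difference from the wild-type array for each mutant array (circle, square, triangle) and their mean (bar) at the 58 tested member probe sets, ordered by mean within each family; a number in brackets counts the probe sets of a gene from the brightest. Keratins run from -0.91 (krt94) to +0.74 (krt97), annexins from -0.76 (anxa1b) to +0.68 (anxa1c), and claudins from -0.63 (cldnj) to +0.58 (cldng).

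Among keratins, 4 of 16 tested probe sets rose, 5 fell and 7 did not pass, against 2.36% rising and 3.14% falling over all tested probe sets. By gene, 3 rose and 5 fell of 13 tested, as the probe sets of a gene are not independent. The median difference was -0.01, against +0.02 over all tested. Its sign was not stable, at -0.11 without mutant array 1 and +0.03 without mutant array 2. The summed signal of all 18 keratin probe sets was 31733 in the wild type, while the mutant sums ran from 33039 to 34933. The sum over all probe sets without controls was also higher in the mutants, at 3573840 against 3622310 to 3700370. The keratin sum is weighted to the brightest probe sets, krt4 above all, and does not weigh rises against falls.

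The largest keratin rise was that of krt97. It read 818 in the wild type against 1440, 1346 and 1358 in the mutant arrays. All 3 mutant arrays were well above the wild type and close to each other. The difference of +0.74 (SE 0.0653), or 1.67-fold, passed the test (adjusted p = 1.52e-04). This was the only member whose call held under all 11 alternative settings, including a doubled SD for the wild-type array, 2 times that of the mutant arrays (adjusted p = 0.0263).

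The keratin krt18b, one of the zebrafish genes for the simple-epithelium keratin K18, read 279 in the wild type against 383, 398 and 392 in the mutants. Again the groups did not overlap, and the rise was 1.38-fold (log2 difference +0.46, SE 0.0760, adjusted p = 0.00686). The related gene krt18a.1 read 1427 in the wild type against 1443, 1408 and 1390 in the mutants. Here the wild-type value lay inside the mutant range, with a difference of -0.01 (SE 0.0602, adjusted p = 0.932).

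Both probe sets of krt91 rose. One read 3120 in the wild type against 4050, 3807 and 3934 in the mutants, 1.26-fold higher (SE 0.0615, adjusted p = 0.0138). The other, whose suffix _x_at marks probes that may also bind other transcripts, read 3998 against 4983, 4756 and 4751, 1.21-fold higher (SE 0.0608, adjusted p = 0.0298). Mutant values were higher throughout, but both calls were lost without mutant array 3 (adjusted p = 0.0661 and 0.152), and the second also without mutant array 2 (0.0840) and when dim probe sets were kept (0.0662). The 270 tested probe sets with a mean signal of 2000 or more had a median difference of +0.11. After cyclic loess, which removes a trend with signal, the krt91 differences went from +0.33 to +0.26 and from +0.27 to +0.20, and both still passed. The part of such a trend in these rises was not tested.

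The largest keratin fall was that of krt94. It read 152 in the wild type against 65.7, 73.4 and 81.0 in the mutants. The wild-type array was far above all of them. The difference was -0.91 (SE 0.142), or 1.88-fold lower (adjusted p = 0.00518). The call held in 10 of 11 alternatives and was lost with the doubled wild-type SD.

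Smaller falls were seen at krt15, krt17, krt1-19d and krt1-19e. The krt15 probe set read 343 in the wild type against 249, 234 and 253 in the mutants, a difference of -0.46 (SE 0.0868, adjusted p = 0.0150). The krt17 probe set read 499 against 404, 386 and 389, a difference of -0.33 (SE 0.0739, adjusted p = 0.0287). In both genes the mutant arrays were tightly grouped below the wild type. Both calls were lost without the variance trend (adjusted p = 0.111 for krt15 and 0.170 for krt17) and with the doubled wild-type SD (0.613 and 0.779). The krt17 call was also lost without mutant array 2 (adjusted p = 0.0554) or 3 (0.0661) and when dim probe sets were kept (0.0546).

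The basal-layer keratin krt1-19e was read by a pair of probe sets. One read 2699 in the wild type against 2135, 2091 and 2121 in the mutants, 1.27-fold lower (SE 0.0577, adjusted p = 0.00724). The other read 4107 against 3620, 3670 and 3534. It differed in the same direction, by -0.19 (SE 0.0588), without passing (adjusted p = 0.104). It passed under cyclic loess (0.0195), quantile normalization (0.0173) and without mutant array 1 (1.16e-04). Without that array 18.8% of all tested probe sets passed. For krt1-19d, one probe set read 296 in the wild type against 224, 203 and 215 in the mutants, 1.35-fold lower (SE 0.0926, adjusted p = 0.0242). The other read 252 against 198, 218 and 189. Its difference of -0.30 (SE 0.102, adjusted p = 0.125) missed the threshold and met it without mutant array 1 (0.0231). All 4 probe sets of both genes had their 3 mutant values below the wild type, as 28.4% of all tested probe sets did. The probe sets of a gene are not independent.

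The abundant skin keratins krt4, krt5 and krt8 did not pass. For krt4 the wild type read 8964 and the mutants 10372, 9440 and 9473. The mutant values were all above the wild type, mutant array 1 the most, with a difference of +0.12 (SE 0.0716, adjusted p = 0.377) that was +0.02 under quantile normalization and +0.03 under cyclic loess. The type II keratin krt5 read 2433 in the wild type against 2502, 2397 and 2585 in the mutants, so the groups overlapped. The type II keratin krt8, partner of K18 in simple epithelia, read 2265 against 2766, 2564 and 2515, a difference of +0.20 (SE 0.0683, adjusted p = 0.120). Without mutant array 1, of the 3 mutant arrays the least like the other mutants, krt8 passed at +0.16 (adjusted p = 0.00122) and krt4 at +0.08 (0.0422). In that fit 18.8% of all tested probe sets passed, against 5.5% in the main fit. The krt99 probe set spread widely between mutant arrays, with 90.5, 39.3 and 47.9 against 56.8 in the wild type. The krt93 and krt95 probe sets were dim, with no value above 17.3.

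**Figure D3:**
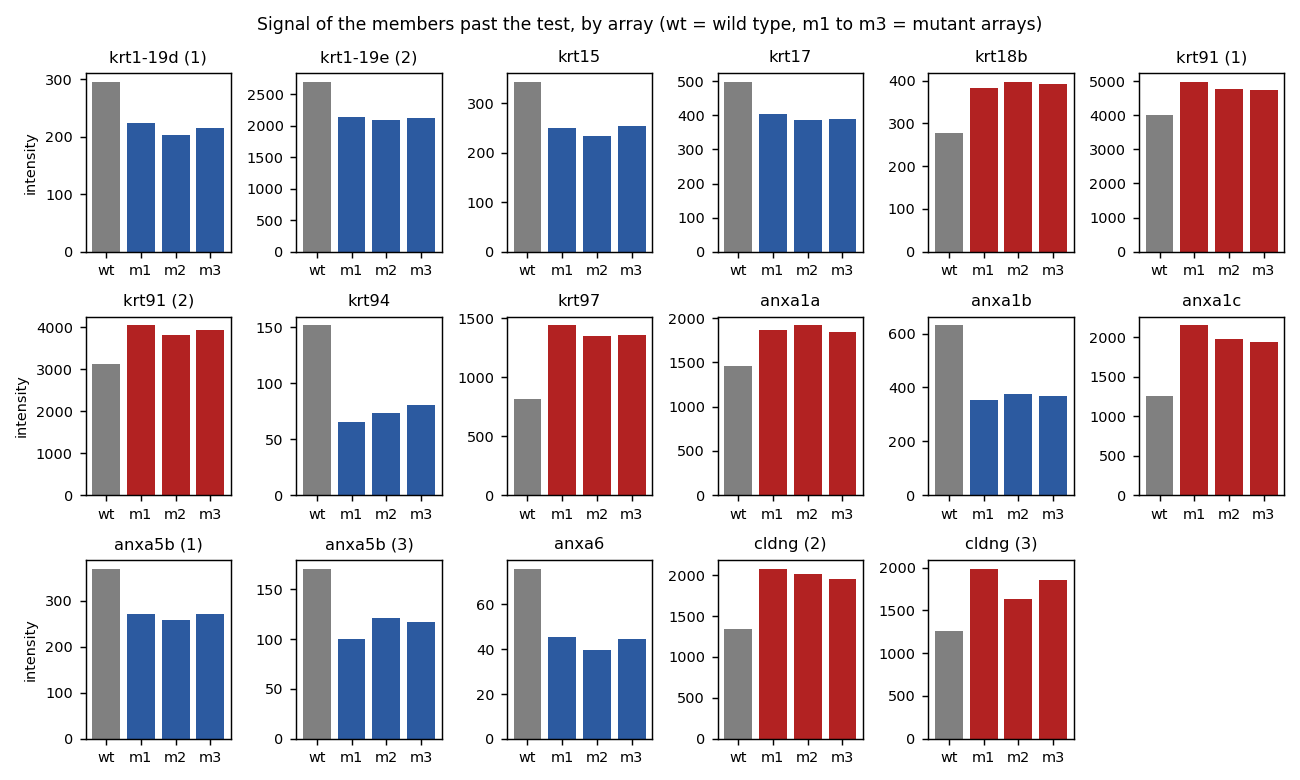
Intensity in the wild-type array (grey) and mutant arrays 1 to 3 (red where higher, blue where lower) for the 17 member probe sets past the test, each on its own axis from 0; a number in brackets counts the probe sets of a gene from the brightest. In each panel the 3 mutant bars lie on 1 side of the wild-type bar, as far apart as 152 against 65.7 to 81.0 in krt94. The panels were chosen by the test on these same values, so this layout is no separate result. Over all tested probe sets 64.6% had the mutant arrays on 1 side.

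Annexin probe sets were lower in the mutants more often than higher. Of 18 tested probe sets 4 fell, 2 rose and 12 did not pass, against 3.14% falling and 2.36% rising over all tested probe sets. The 3 mutant arrays all lay below the wild type at 11 probe sets and all above it at 5, against 28.4% and 36.2% of all tested probe sets. These counts include several probe sets each of anxa5b, anxa13 and anxa4 (all lower) and of anxa1d (higher), which are not independent. By gene, 3 fell and 2 rose of 13 tested. The median difference was -0.24, against +0.02 over all tested probe sets, and stayed between -0.27 and -0.21 under all alternative settings. The summed signal of the 20 annexin probe sets, likewise weighted to the brightest of them, was 6490 in the wild type. The mutant sums ran from 6979 to 7034, where the sum over all probe sets without controls was 3573840 against 3622310 to 3700370.

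The annexin A1 genes moved in opposite directions. In mammals, annexin A1 is induced by glucocorticoids and dampens inflammation. The anxa1b probe set read 631 in the wild type against 355, 376 and 369 in the mutants. The mutant values lay far below the wild type, and the fall was 1.69-fold (log2 difference -0.76, SE 0.0746, adjusted p = 3.38e-04). The anxa1c probe set read 1253 in the wild type against 2152, 1982 and 1942 in the mutants. It rose 1.61-fold (log2 difference +0.68, SE 0.0704, adjusted p = 4.10e-04), with no mutant value near the wild type. The anxa1a probe set read 1455 against 1862, 1919 and 1845, which was 1.29-fold higher (SE 0.0597, adjusted p = 0.00712).

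The calls of anxa1b and anxa1c held in 10 of 11 alternatives each and narrowly missed with the doubled wild-type SD (adjusted p = 0.0508 and 0.0579). The anxa1a call was lost there (0.409) and without the variance trend (0.148). Both probe sets of anxa1d were higher in all mutant arrays without passing. One read 149 in the wild type against 167, 204 and 196 in the mutants (+0.31, SE 0.120, adjusted p = 0.181). The other, an _x_at probe set that may bind other transcripts, read 135 against 153, 174 and 171 (+0.27, SE 0.111, adjusted p = 0.201). Mutant array 1 was the closest to the wild type at both. Both passed without it (adjusted p = 0.00350 and 0.0225), but leaving out the closest array widens the difference by design. In that fit 18.8% of all tested probe sets passed.

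Annexin A5 binds phosphatidylserine exposed on dying cells. Its gene anxa5b had 3 tested probe sets, all lower in every mutant array. The first read 369 in the wild type against 271, 258 and 271 in the mutants, 1.36-fold lower (SE 0.0824, adjusted p = 0.0133). A second read 171 against 99.8, 121 and 117, 1.45-fold lower (SE 0.129, adjusted p = 0.0397), a call lost when dim probe sets were kept (0.0790). Both calls were lost without the variance trend (0.107 and 0.129) and with the doubled wild-type SD (0.587 and 0.883). The third read 153 against 136, 124 and 128 and did not pass (-0.22, adjusted p = 0.309). A further anxa5b probe set was dim, with 1.15 in the wild type and 10.4 as its highest mutant value.

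The anxa6 probe set, for an annexin that takes part in membrane repair of mouse muscle, was weak. It read 75.9 in the wild type against 45.5, 39.6 and 44.7 in the mutants, with no overlap. The fall of 1.55-fold (log2 difference -0.63, SE 0.156) passed narrowly (adjusted p = 0.0442) and was lost in 5 alternatives, among them without mutant array 2 (0.0768), with a pseudocount of 1 (0.0536) and when dim probe sets were kept (0.0978).

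The other annexins did not pass. The 2 probe sets of anxa13, a gene of the intestinal epithelium in mammals, read 328 in the wild type against 230, 251 and 288 (adjusted p = 0.120), and 135 against 97.4, 91.9 and 91.0 (adjusted p = 0.0591). The first passed without mutant array 1 (0.0168) or 3 (0.0239), and the second without mutant array 1 (0.00559) and under cyclic loess (0.0466). Without mutant array 1, 18.8% of all tested probe sets passed. Both anxa13 probe sets were lower in every mutant array, as were those of anxa4. One anxa4 probe set read 343 against 287, 298 and 297 (adjusted p = 0.163). The other read 94.6 against 52.5, 66.6 and 64.6 (adjusted p = 0.0919, and 0.0352 without mutant array 1). The anxa13l (-0.36) and anxa11a (-0.26) probe sets were also lower in every mutant array, and that of anxa3b was higher (+0.33). The anxa11b probe set read 383 in the wild type against 355, 391 and 392 in the mutants, and the groups overlapped there and at anxa2a (-0.12). The gene anxa2b was dim (highest value 10.8).

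Of 19 tested claudin probe sets 2 rose, 0 fell by limma's test and 17 did not pass, against 2.36% rising and 3.14% falling over all tested probe sets. At an unadjusted p under 0.05 stood 7 of the 19, against 20.6%. Both rises were in cldng. The median difference was +0.09, against +0.02 over all tested probe sets, and ran from +0.05 without mutant array 3 to +0.14 without mutant array 1. The 3 mutant arrays were all above the wild type at 9 probe sets, all below it at 4 and overlapped it at 6, where 36.2% and 28.4% of all tested probe sets were above and below.

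The cldng gene had 3 tested probe sets. The first, an _x_at probe set that may bind other transcripts, read 1343 in the wild type against 2077, 2009 and 1952 in the mutants, 1.49-fold higher (SE 0.0621, adjusted p = 5.24e-04). A second read 1254 against 1985, 1630 and 1859, 1.44-fold higher (SE 0.0945, adjusted p = 0.0109). The groups were apart at both. The third read 1920 in the wild type against 1956, 2418 and 2466 in the mutants. There mutant array 1 lay beside the wild type, and the difference of +0.24 (SE 0.111, adjusted p = 0.262) missed the threshold. It met the threshold without that array (3.89e-08), but leaving out the nearest array widens the difference by design. Without mutant array 1, 18.8% of all tested probe sets passed. Neither call of cldng held without the variance trend (adjusted p = 0.0596 and 0.144) or with the doubled wild-type SD. A further cldng probe set was dim.

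Claudins known from zebrafish skin did not pass. The cldni probe set read 1831 in the wild type against 1637, 1785 and 1742 in the mutants (-0.09, SE 0.0665, adjusted p = 0.496). The cldnb probe set read 448 against 446, 468 and 525 (+0.09, adjusted p = 0.634). The cldne probe set read 73.6 against 49.6, 65.9 and 66.4 (-0.23, adjusted p = 0.490). Mutant values were slightly below the wild type at cldni and cldne, and overlapped it at cldnb. A pair of probe sets for cldn7b read 447 against 374, 489 and 453, and 99.7 against 93.7, 113 and 110, so that both overlapped.

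The claudins closest to the threshold were cldn23.1 and cldn11a. For cldn23.1 the wild type read 66.6 and the mutants 109, 98.1 and 98.1, all higher (+0.51, SE 0.131, adjusted p = 0.0543). For cldn11a, related to a claudin of mammalian myelin, the wild type read 540 and the mutants 451, 434 and 469, all lower (-0.25, SE 0.0750, adjusted p = 0.0863). The cldnj probe set read 49.3 in the wild type against 31.5, 26.8 and 20.8 in the mutants (-0.63, SE 0.192, adjusted p = 0.0940). The gene is known for a role in the zebrafish ear. This was the only tested member with a group mean in the dim range, under 27.5, and it was tested only because its wild-type value was higher.

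Among the remaining claudins, cldn1 was higher in all mutant arrays (+0.29, adjusted p = 0.0976), as were cldn15b (+0.27), cldn8.2 (+0.19) and cldn11b (+0.09). A claudin without the usual end motif, cldn12, read 418 in the wild type against 511, 489 and 485 in the mutants at one probe set (+0.24, adjusted p = 0.0960), and 102 against 97.8, 101 and 105 at the other. The first was higher throughout, while at the second the groups overlapped. The myelin claudin cldnk (0.00) and cldn3c (-0.04) also overlapped. The 9 dim claudin probe sets, those of cldn10l2, cldn15la, cldn34a, cldn3d, cldn8.1, cldna, cldnd and cldnf and 1 of cldng, had no value above 28.4.

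The 3 general epithelial genes did not pass either, and all 5 of their probe sets had a difference above 0. Over all tested probe sets 5.5% passed, and 5924 of 10851 had a difference above 0. The epithelial adhesion gene epcam read 1457 in the wild type against 1627, 1626 and 1565 in the mutants at one probe set (+0.14, SE 0.0605, adjusted p = 0.229). Its other probe set, an _x_at one that may bind other transcripts, read 78.2 against 94.8, 107 and 102 (+0.32, adjusted p = 0.201). E-cadherin, encoded by cdh1, links epithelial cells at adherens junctions, and its probe set read 596 against 674, 679 and 601 (+0.12, SE 0.0821, adjusted p = 0.441). For tp63, one probe set read 199 in the wild type against 211, 237 and 208 in the mutants (+0.12, SE 0.102, adjusted p = 0.546), and the other read 64.3 against 74.9, 63.8 and 74.6 (+0.12, adjusted p = 0.725). Mutant values were above the wild type at 4 of the 5 probe sets and overlapped it at the last. All 3 mutant arrays were above it at 36.2% of all tested probe sets.

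Several members lie side by side in the genome, by the gene order of the RefSeq table of assembly GRCz12tu. In a run of keratin genes with krt1-19d, krt1-19e, krt17 and krt91 in that order, krt17 fell (-0.33) and its immediate neighbour krt91 rose (+0.27 and +0.33). In another run, krt94 (-0.91) and krt15 (-0.46) both fell, while krt99, next to krt15, did not pass (-0.01). The neighbours krt5, krt8 and krt18a.1 did not pass at +0.04, +0.20 and -0.01. The krt18b gene, which rose, has a single gene between it and krt4, which did not pass.

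In the annexin run, anxa1c lies between anxa1d and anxa1b, with no other protein-coding gene between them. It rose (+0.68) and anxa1b next to it fell (-0.76). The claudin neighbours cldnj and cldne were at -0.63 and -0.23, and cldn3c and cldnb, with the dim cldn3d between them, at -0.04 and +0.09. Adjacent members thus differed in direction at krt17 and krt91 and at anxa1b and anxa1c. Keratins, like annexins of one subtype, resemble each other in sequence, and binding of their probes to related transcripts was not tested.

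**Figure D4:**
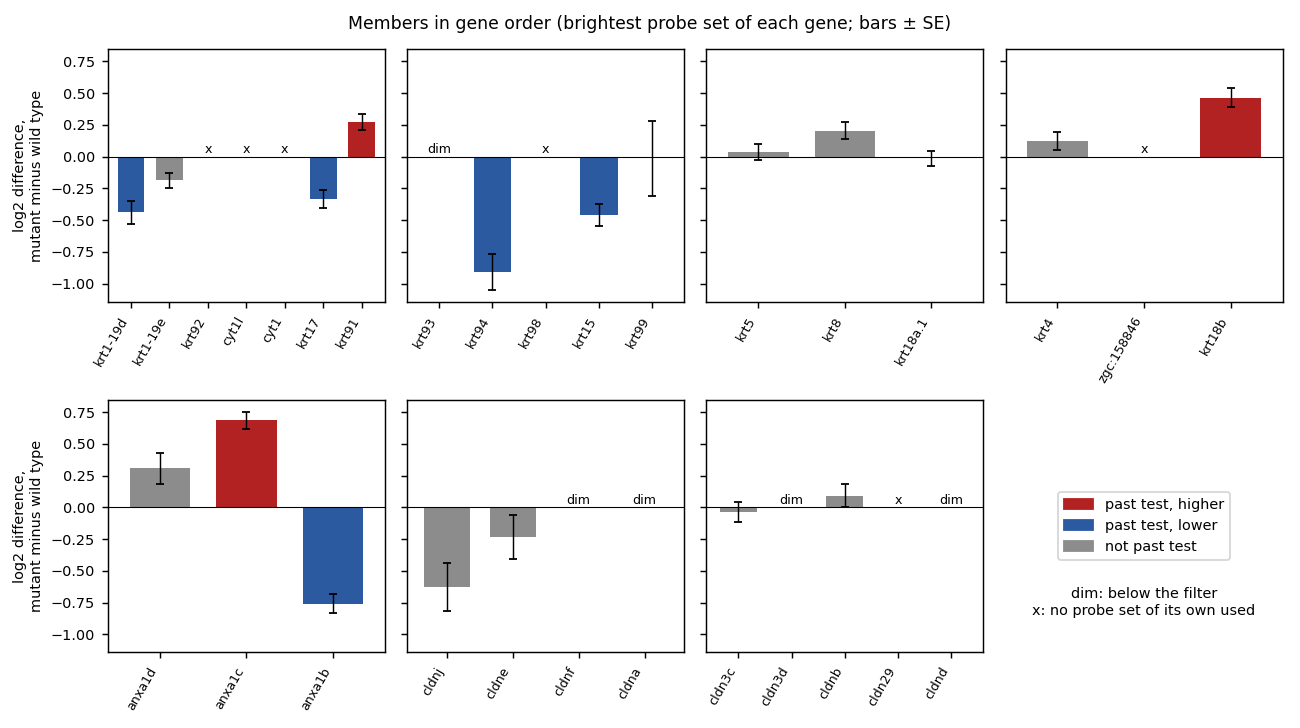
Log2 difference, mutant minus wild type (bars ± SE), of the brightest probe set of each gene, for runs of neighbouring members in genome order (spacing not to scale); red and blue mark rises and falls past the test, x a gene with no probe set used and dim a gene below the filter. In the annexin run, anxa1c at +0.68 stands beside anxa1b at -0.76.

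Genes that work with these families were described from lists written for the comparison. In the desmosome and hemidesmosome list, whose proteins anchor keratin filaments to the cell surface, 0 of 13 tested genes passed limma's test, and 4 (jupa, evplb, pkp1b and ppl) had an unadjusted p under 0.05, against 5.5% and 20.6% of all tested probe sets. Of the 13, 12 lay above 0, as did 5924 of all 10851 tested probe sets. The median was +0.19, against +0.02 over all tested probe sets. The plakin gene ppl read 664 in the wild type against 731, 788 and 735 in the mutants (adjusted p = 0.198), the plakoglobin gene jupa 499 against 565, 600 and 582 (adjusted p = 0.111), and the plakophilin gene pkp3a 421 against 439, 480 and 497 (adjusted p = 0.331). Every mutant value of these 3 genes was above the wild type, as at 36.2% of all tested probe sets. Without mutant array 1, where 18.8% of all tested probe sets passed, 5 of the 13 did, all higher.

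In the list of tight junction and adherens partners of claudins and cadherins 0 of 8 tested genes passed limma's test, and 1 (oclna) had an unadjusted p under 0.05, against the same shares. The median was +0.06. The beta-catenin gene ctnnb1 read 1670.5 in the wild type against 1655, 1822 and 1736 in the mutants (adjusted p = 0.712). The junctional adhesion molecule gene f11r.1 (-0.01) and the N-cadherin gene cdh2 (-0.04) lay near 0. The tight junction protein gene oclna read 367 against 416, 444 and 457 (adjusted p = 0.110). Mutant values of oclna were all higher, and those of ctnnb1 overlapped the wild type.

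The list of epidermal regulators and periderm genes held 32 tested genes, of which 4 fell, 2 rose and 26 missed the threshold, against 3.14% falling and 2.36% rising over all tested probe sets. Its median was -0.03. The transcription factor gene tfap2a, active in epidermis and neural crest, read 1565 in the wild type against 1288, 1208 and 1224 in the mutants, 1.26-fold lower (SE 0.0641, adjusted p = 0.0163). The gene agr2, for a protein disulfide isomerase of secretory epithelia, read 754 against 474, 496 and 486, 1.54-fold lower (SE 0.0694, adjusted p = 6.38e-04). Both were lower in every mutant array. The other falls were klf2a (-0.72, adjusted p = 0.0243), which responds to blood flow in vessels, and krtcap2 (-0.42, adjusted p = 0.0104), which encodes an oligosaccharyltransferase subunit and no keratin partner.

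The 2 rises in that list were icn2 (1.18-fold, adjusted p = 0.0384) and s100a10b (1.18-fold, adjusted p = 0.0439). The first read 2582 in the wild type against 3025, 3088 and 3063 in the mutants, and the second 1004 against 1190, 1204 and 1185. Both were higher throughout, and both calls were lost without mutant array 2 or 3, under cyclic loess, when dim probe sets were kept, with no variance trend and with a doubled wild-type SD. The icn2 probe set is an _x_at one that may bind other transcripts, as is that of icn in the same list. The icn probe set read 3424 in the wild type against 3653, 3601 and 3681 in the mutants and did not pass (+0.09, adjusted p = 0.421).

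S100A10 forms a complex with annexin A2 in mammals, and s100a10b was also the 1 gene that rose among 7 tested annexin partners and membrane repair genes (background 2.36%). The 1 that fell there (background 3.14%), pdcd6, encodes a calcium-binding protein that interacts with annexins in human cells. It read 194 in the wild type against 115, 131 and 123 in the mutants, 1.51-fold lower (SE 0.114, adjusted p = 0.0153).

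Ionocytes are skin cells that transport ions. Of 5 tested genes of their list 3 fell and 0 rose by limma's test, against 3.14% and 2.36% over all tested probe sets, and the median was -0.69. The carbonic anhydrase gene ca2 read 413 in the wild type against 220, 227 and 223 in the mutants, 1.79-fold lower (SE 0.0834, adjusted p = 3.57e-04). The sodium pump subunit genes atp1a1a.2 and atp1b1b fell 2.05-fold (adjusted p = 0.0131) and 1.61-fold (adjusted p = 0.0288). None of these 3 is expressed in ionocytes alone. The atp1a1a.2 values, 78.3 in the wild type against 37.5, 24.7 and 28.3 in the mutants, came close to the dim range (under 27.5). Of the list, 1 gene passed without the variance trend and 0 with the wild-type SD doubled, against 1.51% and 0.433% of all tested probe sets. The brightest gene of the list, atp6v1ba, read 988 in the wild type against 1071, 958 and 989 in the mutants. It did not pass (+0.02, adjusted p = 0.896), and neither did atp1a1a.4 (-0.31, adjusted p = 0.264). The genes atp1a1a.3, atp1a1a.5 and rhcgb were dim.

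Marker lists of other tissues and of brain were read from the same arrays. Over all tested probe sets 3.14% fell and 2.36% rose, which is the background for each of these lists. In the skeletal muscle list 13 of 14 tested genes fell. The summed signal of its 14 genes was 7547 in the wild type, while the mutant sums ran from 2680 to 2879. The red blood cell list fell at 6 of 6 tested genes, with a sum of 6645 against 1579 to 1744. Cartilage fell at 5 of 8 (sum 4829 against 2842 to 3030), lens at 4 of 5 (5122 against 2963 to 3170) and pigment cells at 4 of 5 (2373 against 1192 to 1283). By limma 0 of 2 tested blood vessel genes and 0 of 4 notochord genes passed, with 0 at an unadjusted p under 0.05. Of all tested probe sets 5.5% passed and 20.6% had such a p. In the brain list 4 of 19 rose and 1 fell (sum 18413 against 17998 to 18466). The part of these tissues in the falls of keratin and annexin genes was not tested. Markers in the dim range were epb41b and gata1a (red cells), sox9a (cartilage) and tyr (pigment cells). So were tie1 and tek (vessels), tbxta and col8a1a (notochord) and otx2a and egr2b (brain).

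**Figure D5:**
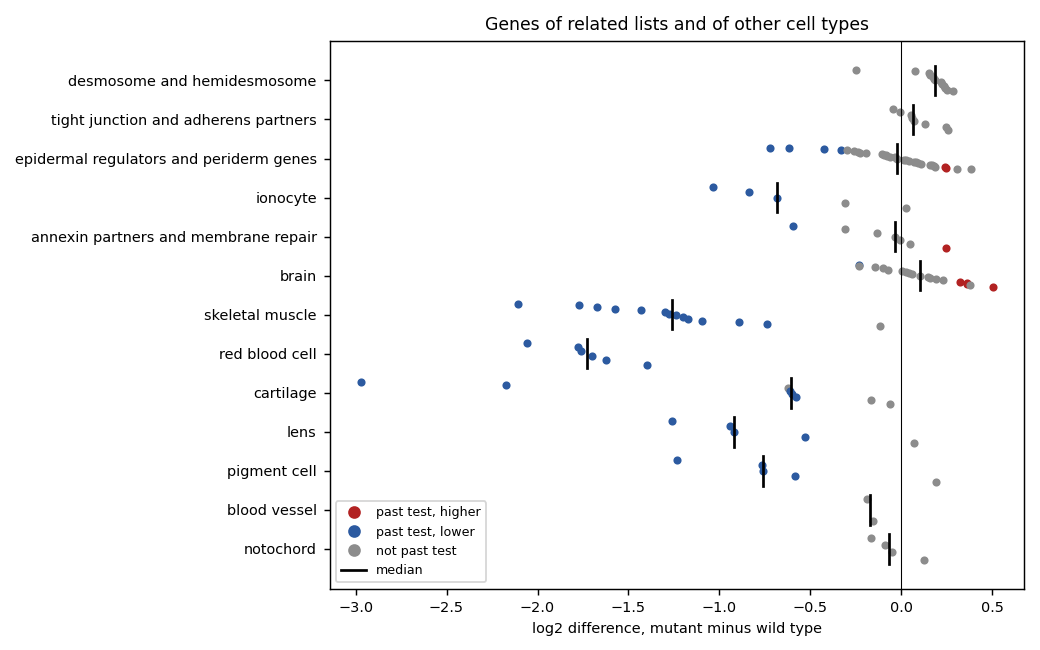
Log2 difference, mutant minus wild type, of the tested genes of 5 lists related to skin and of 8 marker lists (points; black bar, median; red and blue, past the test). Desmosome genes cluster above 0 with a median of +0.19, while medians of muscle and red cell markers are -1.26 and -1.73.

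Calls within these families depended on the assumed spread. Of the 17, 4 held without the variance trend (krt97, krt94, anxa1b and anxa1c) and 1 with the wild-type SD doubled (krt97), where 1.51% and 0.433% of all tested probe sets passed. With a pseudocount of 1, 16 held (background 5.35%), with the larger pseudocount 17 (5.53%) and with dim probe sets kept 13 (2.45%). Under quantile normalization (5.37%), cyclic loess (5.56%) and median centring (5.42%) all 17 held, and without mutant array 2 (5.36%) or 3 (5.13%) 14 did each. Without mutant array 1 the number of members past the test was 36, where 18.8% of all tested probe sets passed. That fit rests on mutant arrays 2 and 3, whose log2 differences from each other over members had an SD of 0.0941, against 0.20 and 0.182 for the pairs with mutant array 1.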

How the data were processed

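RNA of 4 samples (1 wild type, 3 foggy mutant) was measured on the Affymetrix zebrafish array. The authors deposited 1 linear intensity per probe set and array. Software and background correction were not given in the sources used here. These values had equal trimmed means (150.03 in each array) and were used unchanged. No values were identical between arrays, and all columns were mapped by their labels.

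Control probe sets (115) were left out. Before log2, 16.3 was added to each intensity (their 20th percentile). Probe sets in the lowest 30 percent by mean log2 value were removed as dim. limma 3.58.1 in R 4.3.3 (lmFit, eBayes with trend) was fitted to 10851 probe sets, with 2 residual and 7.89 prior degrees of freedom. It was also run on simulated data that gave all 4 arrays the same spread. That run therefore cannot test the assumption made for the wild-type array. P-values rest on the spread of samples whose separate origin is not stated, so it may be technical only. The number of arrays limits the precision.

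Symbols came from the platform's annotation, which is of an older date. All 55 member genes matched the RefSeq table (GRCz12tu) by gene number with 0 symbols changed. That table served for names and gene order only. In lists the probe set of highest mean signal stood for each gene, and pkp3a, evpla, s100a10b, s100a1 and capns1a stand in more than 1 list. Values of every array are given for members past the threshold, for the 5 brightest probe sets of a family, for members at which all mutant arrays differed by at least 0.5 in 1 direction and for genes with several probe sets; others were named after their values were seen. Members, lists and tests were chosen with earlier results of these data known. Alternatives covered the pseudocount, filter, normalization, variance trend, wild-type SD and leaving out each mutant array.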

Additional observations from a re-analysis of the deposited data

How the results depend on the processing

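All 17 member calls held with the pseudocount at the median of all values, under quantile normalization, cyclic loess and median centring. With a pseudocount of 1, 16 held, and 13 did when dim probe sets were kept. Over the whole array, 597 probe sets passed, against 380 with dim probe sets kept, 164 (27 higher, 137 lower) without the variance trend and 47 (3 higher, 44 lower) with the wild-type SD doubled. The split of 256 higher and 341 lower became 204 and 399 under cyclic loess. Without the variance trend 4 members passed (2 keratins, 2 annexins, 0 claudins), with 1 epidermal, 1 ionocyte and 0 annexin partner genes. With the wild-type SD doubled 1 member passed (1 keratin, 0 annexins, 0 claudins) and 0 genes of these 3 lists. With dim probe sets kept 3 epidermal genes and 1 annexin partner passed, and under cyclic loess 1 annexin partner did.

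Leaving out each mutant array in turn gave between 557 and 2045 probe sets in all, 14 to 36 members, 6 to 13 keratins, 5 to 14 annexins, 2 to 8 claudins and 0 to 1 other epithelial probe sets. The lists gave 0 to 5 desmosome, 0 to 1 tight junction, 4 to 13 epidermal and 1 to 3 annexin partner genes, and the highest numbers came without mutant array 1. A sign changed without mutant array 1 at 3 probe sets that had not passed: anxa11b, the dimmer probe set of cldn12 and the brighter one of cldn7b. Leaving out each array, their log2 differences ran from -0.0387 to 0.0296, from -0.0339 to 0.0124 and from -0.117 to 0.0711. The cause was not tested. The wild-type array could not be left out. No paired analysis was possible because the groups share only the number 1. Signal in the dim range limits 13 members.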
